A study of Mus musculus with 4 samples.

Results

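The distal part of mouse chromosome 7 from 142000001 to 143700000 (build mm8, counted from 1) holds an imprinted domain, with H19 and Igf2 in its first part and the block of Kcnq1 and Cdkn1c at higher coordinates. It was chosen by these coordinates and not by any measured value, and was cut into 85 bins of 20 kb with 5 tiles of 4 kb in each, out of 657686 such tiles on chromosomes 1 to 19, X and Y. Histone marks were measured by ChIP-seq, the sequencing of immunoprecipitated chromatin, in MDER 10T cells, mouse fibroblasts in which, per the series title, MyoD1 (the muscle transcription factor) can be induced with estrogen. There was 1 library each for H3K4me3, H3K27me3 and H3K9me3, and 1 of whole-cell extract (WCE), made with no antibody, which is the control for all 3 marks. The cells of all 4 libraries were grown in medium with 10% serum. The labels name no estrogen treatment, no time point and no strain, and all 4 libraries come from the same cell line. With 1 library per group there is no spread between replicates, so each test below compares the reads of 2 libraries and not 2 conditions.

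Genes of an imprinted domain are read from 1 parental chromosome. In mouse, H19, a long noncoding RNA, is read from the maternal copy, and its neighbour Igf2, a growth factor, from the paternal copy. Kcnq1ot1 is an antisense RNA read from the paternal copy inside Kcnq1, a potassium channel gene, and on that copy genes around it such as Cdkn1c, an inhibitor of the cell cycle, are silent. H3K4me3 marks active promoters and other CpG-rich promoters without DNA methylation, H3K27me3 is laid down by Polycomb at silent genes, and H3K9me3 marks heterochromatin and the DNA-methylated copy of imprinting control regions. Where the parental copies differ in this way, pooled chromatin shows H3K4me3 together with a repressive mark at 1 place, and for that reason tiles holding both were sought. The same picture arises where both marks sit on 1 copy or in different cells. The deposited lists give positions and no bases, so no read can be given to a parent.

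No annotation in build mm8 was used, so no tile is assigned to a gene. In the GRCm38.p6 gene table of RefSeq, 18 listed genes of the domain follow each other in the order H19, Igf2, Ins2, Th, Ascl2, Tspan32, Cd81, Tssc4, Trpm5, Kcnq1, Kcnq1ot1, Cdkn1c, Slc22a18, Phlda2, Nap1l4, Cars, Tnfrsf23 and Osbpl5. Promoter sequences, from 250 bases before to 50 bases after a start, were at hand for 12 of them. Those of Igf2 (of its 4 starts, the one with most CpG) and Kcnq1ot1 are shown because both genes are read from 1 parental copy. Whether these promoters hold H3K4me3 with a repressive mark was not tested. Both lie on the minus strand of GRCm38.p6 chromosome 7, are credited to RefSeq, and have each CpG in capitals.
Igf2 promoter: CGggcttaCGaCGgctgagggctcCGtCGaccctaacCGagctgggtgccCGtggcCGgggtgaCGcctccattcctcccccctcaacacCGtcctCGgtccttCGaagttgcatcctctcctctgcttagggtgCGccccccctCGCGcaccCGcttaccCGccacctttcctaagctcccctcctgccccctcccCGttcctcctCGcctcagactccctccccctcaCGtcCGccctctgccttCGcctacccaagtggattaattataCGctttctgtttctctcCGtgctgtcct
Kcnq1ot1 promoter: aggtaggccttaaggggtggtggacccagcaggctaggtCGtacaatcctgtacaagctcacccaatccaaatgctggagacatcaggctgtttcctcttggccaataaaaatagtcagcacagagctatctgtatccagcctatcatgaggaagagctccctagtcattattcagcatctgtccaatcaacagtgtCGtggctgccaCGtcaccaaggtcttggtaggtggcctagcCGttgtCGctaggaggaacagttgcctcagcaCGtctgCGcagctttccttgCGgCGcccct
The Igf2 sequence holds 24 CpG, a number that 19.98% of 32851 mouse promoters of this length reach, and the Kcnq1ot1 sequence holds 9, which 45.8% reach (median 7). The other Igf2 starts hold 14, 7 and 2 CpG. These counts describe the sequences only, since none could be placed on a tile.

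The domain held 3526 H3K4me3, 3968 H3K27me3 and 2042 H3K9me3 reads, against 2904 WCE reads. These come from 3086567, 2933567 and 2101444 autosomal reads of the marks and 2977697 of WCE, after reads with the same position and strand were counted once. Such repeats made up 4.42% of H3K4me3, 6.70% of H3K27me3, 7.35% of H3K9me3 and 5.59% of WCE reads in the domain. A tile had a median of 4 H3K4me3, 8 H3K27me3 and 4 H3K9me3 reads, against 6 WCE reads, and 15 tiles had no WCE read. Each ratio below divides the reads of a mark by those of WCE, both taken relative to the library's autosomal reads. Its 95% interval is exact (Clopper-Pearson) and covers counting error only, because amplified reads are not independent molecules.

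Over the whole domain H3K27me3 and H3K4me3 stood above WCE, and H3K9me3 was within counting error of it. The H3K27me3 ratio was 1.39 (1.32 to 1.46, two-sided exact binomial p = 2.4e-41), the H3K4me3 ratio 1.17 (1.11 to 1.23, p = 2.7e-10) and the H3K9me3 ratio 0.996 (0.941 to 1.05, p = 0.91). The order of the first 2 depends on scaling: by the median ratio over 100 kb bins, the H3K27me3 ratio was 1.72 and the H3K4me3 ratio 2.05. By tile, the median log2 ratio with 1 read added was 0.38 for H3K27me3 in the domain, against -0.20 over all tiles tested. The H3K4me3 median was -0.54 in the domain, against -0.75 over all tiles, and the H3K9me3 median was 0.02 in both.

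The rise of H3K27me3 was shared with the chromosome on both sides. The H3K27me3 ratio was 1.39 in the domain, against 1.28 (1.22 to 1.35) in the 1.7 Mb before it and 1.42 (1.35 to 1.49) from 143700001 to the last read of the chromosome. The domain exceeded the part before it 1.08 times (1.01 to 1.16, Fisher's exact p = 0.027), and stood at 0.978 times the part after it (0.913 to 1.05, p = 0.53). Against the rest of chromosome 7, whose H3K27me3 ratio was 1.04, the domain stood 1.33 times higher (1.27 to 1.39, Fisher's exact p = 7.0e-31). H3K4me3 in the domain was 0.614 times that of the part before it (0.574 to 0.657, Fisher's exact p = 3.0e-46), where the ratio was 1.91, but 1.09 times that of the part after it (1.01 to 1.17, exact p = 0.018), and 1.02 times that of the rest of chromosome 7 (0.972 to 1.07, exact p = 0.41). H3K9me3 was 0.902 times that of the part after the domain (0.832 to 0.977, Fisher's exact p = 0.011), and its difference from the part before was within counting error (1.01, 0.928 to 1.09, exact p = 0.89). Against the rest of chromosome 7, H3K9me3 was at 0.948 times (0.895 to 1.004, exact p = 0.069). These 9 comparisons were not adjusted for their number.

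H3K4me3 lay in narrow peaks. A tile was called where the exact binomial test against WCE, one-sided and Benjamini-Hochberg adjusted over all tiles tested, gave an adjusted p under 0.05 and the ratio was at least 2. H3K4me3 was called in 19 tiles (4.47% of the domain's tiles), against 2.33% of all tiles tested, and 413 tiles of the domain held a read of either library. The 1.7 Mb before the domain had 39 called H3K4me3 tiles (9.18%) and the part after it 14 (3.91%), so the domain's share lies between those of its flanks. A wider group is the 25 tiles raised for H3K4me3, with a ratio of at least 2 and an unadjusted 95% interval above 1, where the share of all tiles is 2.86%. The 19 called tiles held 41.7% (40.1 to 43.3%) of the H3K4me3 reads of the domain, against 9.19% (8.17 to 10.3%) of its WCE reads. The tiles were chosen by these same reads, so the 2 shares carry no test.

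The tile from 143356001 had the highest H3K4me3 ratio of the called tiles with 1 read added. It held 90 H3K4me3 reads, against 6 WCE reads, a ratio of 14.5 (6.39 to 40.5, adjusted exact p = 7.8e-18). The tile from 142860001 had the most reads, 203 H3K4me3 against 18 WCE, a ratio of 10.9 (6.71 to 18.7, adjusted exact p = 9.4e-37). Neither of these tiles was raised for another mark: they held 7 and 8 H3K27me3 reads and 5 and 14 H3K9me3 reads. The tile from 143408001 held 112 H3K4me3 reads, against 13 WCE reads. The tile from 143636001 held 115 H3K4me3 reads, against 13 WCE reads. The tile from 142876001 held 94 H3K4me3 reads, against 12 WCE reads. The ratios of these last 3 tiles were 8.31, 8.53 and 7.56. The other tiles of the 10 highest were those from 143456001 (43 H3K4me3, 5 WCE reads), 143104001 (65 and 10), 143628001 (34 and 5), 143492001 (24 and 4) and 142196001 (122 and 24). Called tiles with the lowest ranks had ratios as low as 2.34. Of the tiles that missed, the one from 143640001 came nearest, with 26 H3K4me3 against 8 WCE reads (ratio 3.14, adjusted exact p = 0.085).

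Called H3K4me3 tiles stood mostly alone, 14 as single tiles and 5 in 2 stretches. The stretch from 143628001 to 143640000 (12 kb) held 193 H3K4me3 against 30 WCE reads, a ratio of 6.21. The stretch from 142860001 to 142868000 (8 kb) held 249 against 37 reads, a ratio of 6.49. Within a tile, reads were tightly placed. The densest 500 bp of each tile held a median of 44.6% of its H3K4me3 reads, from 30.3% to 93.0%. The interquartile span of read positions had a median of 566 bp, where an even spread over a tile would give 2000 bp.

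**Figure D1:**
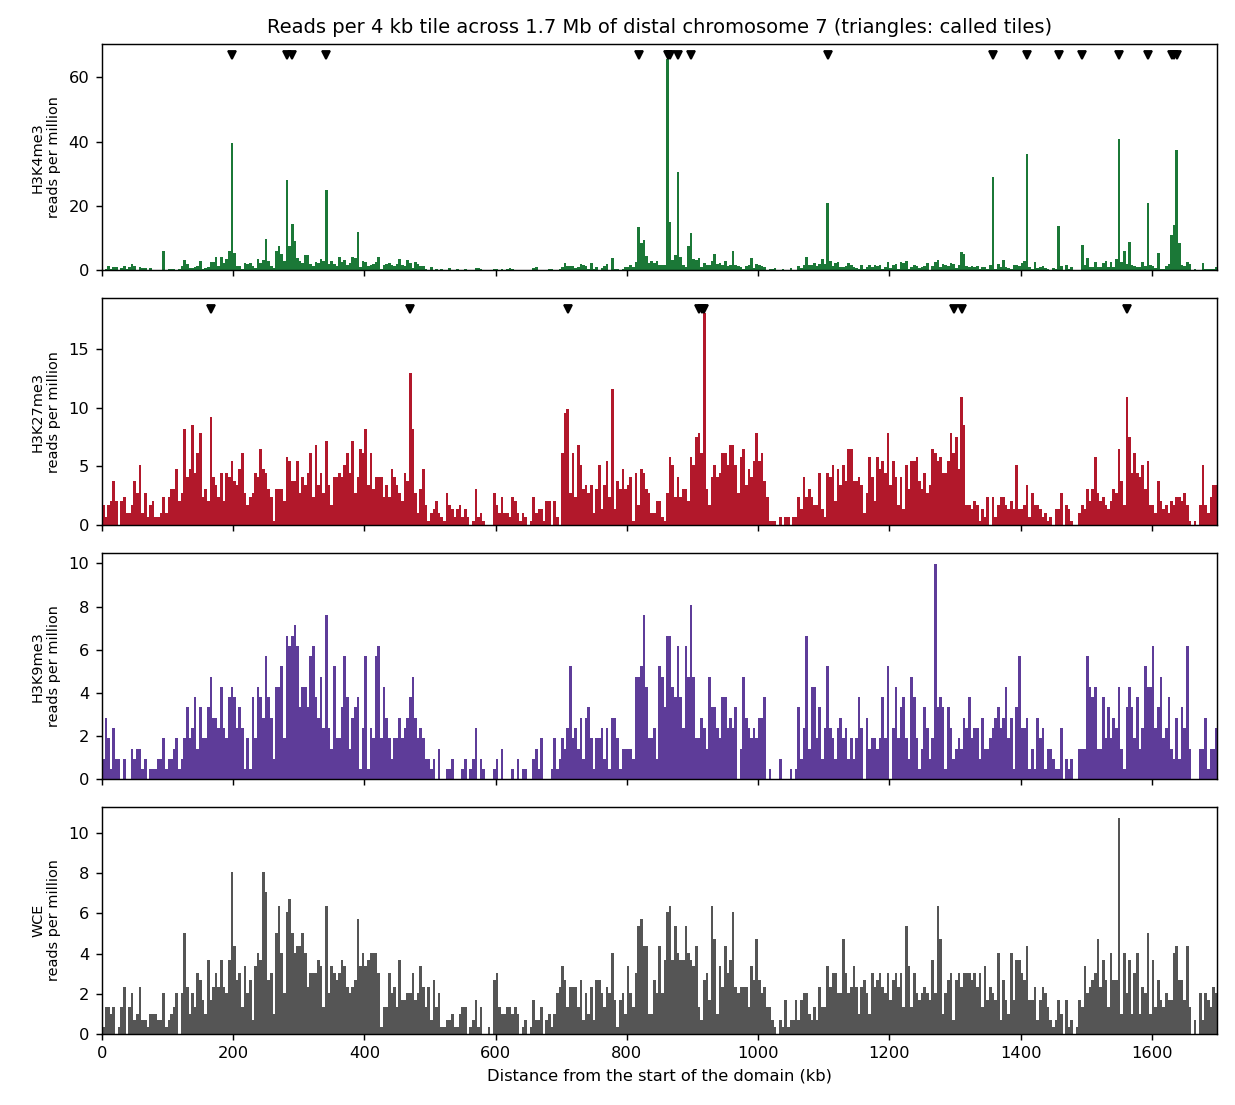
Reads in each 4 kb tile, scaled to the autosomal reads of the library (y axis), against distance from the start of the domain in kb (x axis), for H3K4me3, H3K27me3, H3K9me3 and WCE from top to bottom, with triangles over called tiles. H3K4me3 has 19 called tiles in narrow peaks and H3K27me3 has 9 on a wide raised level, while H3K9me3 has none.

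In the larger bins described below, H3K27me3 stood at a wide, low level, and few single tiles were strong. It was called in 9 tiles (2.12% of the domain's tiles), against 0.624% of all tiles tested, and 47 were raised (11.1%), against 3.58%. The 1.7 Mb before the domain also had 9 called tiles and had 43 raised ones (10.1%), and the part after it had 7 called tiles and 41 raised ones (11.5%), so these counts are close to those of the flanks. By tile the mark was scattered: the raised tiles of the domain formed 37 stretches, 30 of them single tiles. The longest was 12 kb, against 16 kb for raised H3K4me3 tiles. The number of called tiles depends on the settings: it was 1 with 2 kb tiles, 3 against the larger of the tile's and the local mean WCE, 5 at an adjusted p under 0.01, and 19 with scaling by the median ratio over 100 kb bins. In the 9 called tiles the H3K27me3 reads numbered 270, against 44 WCE reads, a pooled ratio of 6.23 (4.52 to 8.77). The tiles were chosen by these same reads, so the pooled ratio and its interval carry no test. These tiles held 6.804% (6.04 to 7.63%) of the H3K27me3 reads of the domain, so most of the mark lay outside them. Reads within a called tile were less tightly placed than those of H3K4me3. A median of 24.1% of a tile's H3K27me3 reads lay in its densest 500 bp, and the median interquartile span was 1486 bp. These tiles held a median of 29 H3K27me3 reads, against 65 H3K4me3 reads in the called H3K4me3 tiles. The share in the densest 500 bp depends on the number of reads, and the part of depth in this difference was not tested.

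The only called H3K27me3 stretch of over 1 tile ran from 142908001 to 142920000 (12 kb), with 94 H3K27me3 against 14 WCE reads (ratio 6.82). Its last tile, from 142916001, held 53 H3K27me3 against 8 WCE reads (ratio 6.72, 3.18 to 16.4, adjusted exact p = 1.6e-06), the most H3K27me3 reads of any tile in the domain. The 2 tiles before it held 23 and 18 H3K27me3 reads, against 4 and 2 WCE reads. The other called tiles were those from 142164001 (27 H3K27me3, 5 WCE reads), 142468001 (38 and 6), 142708001 (29 and 4), 143296001 (18 and 2), 143308001 (32 and 7) and 143560001 (32 and 6). Their ratios ran from 4.64 to 9.14, with WCE counts too low for a closer order. The nearest miss was the tile from 142136001, with 25 H3K27me3 against 6 WCE reads (ratio 4.23, adjusted exact p = 0.056).

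In larger bins, H3K4me3 and H3K27me3 were called in different bins of the domain. Bins were called at an adjusted p under 0.05 over all bins of the genome and a ratio of at least 1.5. Of 17 bins of 100 kb, 8 were called for H3K27me3 (47.1%), against 8.84% of all bins, and 4 for H3K4me3 (23.5%), against 13.1%, with 0 called for both, against 0.982% of all bins. Of 85 bins of 20 kb, 18 were called for H3K27me3 (against 5.88% of all bins) and 12 for H3K4me3 (against 7.66%), with 0 called for both, against 0.394% of all bins. Bins called for both are rare everywhere, so these counts of 0 do not set the domain apart. In the 100 kb bins from 142100001, 142300001 and 143500001 the intervals of both marks lay above 1. There H3K4me3 was at 1.37, 1.21 and 1.53, and H3K27me3 at 1.81, 1.34 and 1.29. With scaling by the median ratio over 100 kb bins, an alternative added after the data were seen, 8 of the 20 kb bins were called for both. All these calls use the same WCE reads. H3K9me3 was called in none of the 17 bins (against 3.66% of all) and none of the 85 (against 0.795%). The H3K27me3 ratio was highest, 2.26 (1.85 to 2.77), in the 100 kb from 142700001, where H3K4me3 was at 0.555. In the next 100 kb the order of the marks was the opposite, with 625 H3K4me3 and 213 H3K27me3 reads, against 275 WCE reads, and ratios of 2.19 and 0.786. From 142900001 to 143320000, an extent chosen after the values were seen, H3K27me3 was at 1.79 (1.64 to 1.96) and H3K4me3 at 0.773. From there to the end of the domain, the H3K27me3 ratio was 0.98 and the H3K4me3 ratio 1.59, with 9 of the 19 called H3K4me3 tiles. The edge was sharp at 20 kb, with H3K27me3 at 2.37 in the bin from 143300001 and 0.508 in the bin from 143320001. The bin from 142400001 to 142500000 had 140 H3K4me3, 297 H3K27me3 and 142 H3K9me3 reads, against 182 WCE reads, with H3K27me3 at 1.66 and H3K4me3 at 0.742.

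**Figure D2:**
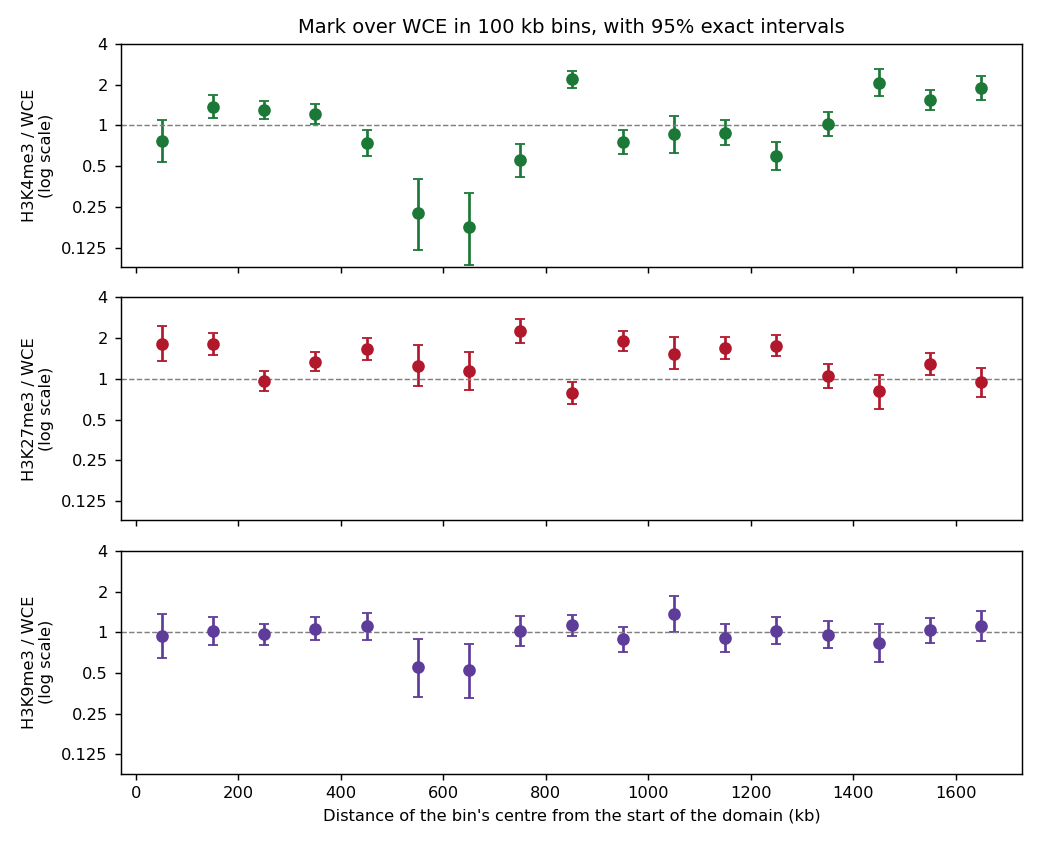
Ratio of each mark to WCE (y axis, log scale, scaled to autosomal totals) in 17 bins of 100 kb against distance of the bin's centre from the start of the domain in kb (x axis), with 95% exact intervals as bars and a dashed line at 1. H3K4me3 and H3K27me3 are highest in different bins, at 2.19 and 2.26, and H3K9me3 stays between 0.522 and 1.35. In the bins that start at 100, 300 and 1500 kb, the bars of both H3K4me3 and H3K27me3 lie above 1.

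A sparse stretch of 200 kb from 142500001 to 142700000 stood apart. It held 29 H3K4me3, 164 H3K27me3 and 53 H3K9me3 reads, against 140 WCE reads. There the H3K4me3 ratio was 0.1998 (0.129 to 0.300) and the H3K9me3 ratio 0.536 (0.383 to 0.741), while H3K27me3 was at 1.19 (0.943 to 1.501). WCE itself was at 2.80 reads per 4 kb, against a median of 6 per tile over the domain. The tiles from 142580001 to 142588000 had no WCE read and were the only 2 such tiles side by side in the domain. At the other extreme, the tiles with the most WCE reads were those from 143548001 (126 H3K4me3, 32 WCE), 142196001 (122 and 24) and 142244001 (10 and 24), and the first 2 of these were called for H3K4me3.

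H3K9me3 had no called tile in the domain, against 0.0195% of all tiles tested. It was raised in 6 tiles (1.41%), against 1.75% of all tiles, so the share is near that of the genome. The 6 tiles, named although the rule for naming covers called tiles only, start at 142228001, 143072001, 143080001, 143232001, 143268001 and 143596001. The tile from 143268001 had the lowest adjusted p, 0.24, with 21 H3K9me3 against 6 WCE reads (ratio 4.96, 1.94 to 15) and 18 H3K27me3 reads (ratio 3.05, 1.16 to 9.37). The tile from 143232001 was likewise raised for H3K9me3 (10 reads) and H3K27me3 (16 reads), against 4 WCE reads. These 2 were the tiles raised for both repressive marks, 0.471% of the domain, against 0.326% of all tiles. The tiles from 143072001 and 143080001 lie in 40 kb, from 143060001 to 143100000, that held 62 H3K9me3 against 41 WCE reads (ratio 2.14, 1.42 to 3.26), an extent chosen after the values were seen. Neither of its 20 kb bins was called for H3K9me3, at ratios of 1.997 and 2.312. H3K27me3 was above WCE in these 40 kb too, at 1.81 (1.22 to 2.72), and H3K4me3 was at 1.46 (0.968 to 2.22). WCE was at 4.1 reads per 4 kb there, against a median of 6 per tile over the domain. The part of WCE in these ratios was not tested.

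No tile held H3K4me3 together with another mark by these rules. Tiles called for both H3K4me3 and H3K27me3 numbered 0, against 0.0514% of all tiles, and tiles raised for both 0, against 0.186%. Tiles called for both H3K4me3 and H3K9me3 numbered 0, against 0.00209%, and tiles raised for both 0, against 0.11%. The shares are small everywhere. In the whole genome 6.43% of tiles raised for H3K4me3 were raised for H3K27me3 and 3.79% for H3K9me3. By the rough rule of 3 divided by the number of tiles, a count of 0 among 25 tiles allows a share of up to 12.0%. That limit is approximate and not an exact interval. The count of 0 thus does not set the domain apart from the genome. The counts depend on scaling: by the median ratio over 100 kb bins, 1 tile (from 143308001) was called and 7 raised for H3K4me3 with H3K27me3, and 3 were raised for H3K4me3 with H3K9me3. Those 7 start at 142380001, 142908001, 143308001, 143312001, 143552001, 143564001 and 143676001. The 3 with H3K9me3 start at 142896001, 143072001 and 143500001. In the flanks, 5 tiles were raised for both H3K4me3 and H3K27me3 before the domain and 1 after it.

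The depth limits what single tiles can show of a second mark, and the pooled reads give only an average over tiles. In the 19 called H3K4me3 tiles the other marks pooled to 216 H3K27me3 and 176 H3K9me3 reads, against 267 WCE reads, ratios of 0.821 (0.683 to 0.986) and 0.934 (0.768 to 1.13). Tile by tile the H3K27me3 ratio ran from 0.317 to 1.57, and its interval reached 2 or more in 9 of the 19 tiles. The H3K9me3 ratio ran from 0.236 to 2.19, and its interval reached 2 or more in 14. A 2-fold level of H3K9me3 in any single one of those 14 tiles is thus within counting error. The pooled interval lies below 2 for both marks, but it describes the average of the 19 tiles and sets no limit for any one of them. WCE was denser in these tiles, at 14.1 reads per tile, against 8.32 in adjoining tiles, and its part in the low ratios was not tested. At the densest 500 bp of each tile, chosen from H3K4me3 reads alone, the sums were 673 H3K4me3, 46 H3K27me3 and 47 H3K9me3 reads, against 56 WCE reads. At these points the H3K4me3 ratio was 11.6, the H3K27me3 ratio 0.834 (0.552 to 1.25) and the H3K9me3 ratio 1.19 (0.789 to 1.78). In the 9 called H3K27me3 tiles, H3K4me3 pooled to 71 and H3K9me3 to 50 reads, against 44 WCE reads, ratios of 1.56 (1.05 to 2.32) and 1.61 (1.05 to 2.47). The 4.89 WCE reads per tile there are fewer than elsewhere and enter all 3 ratios. At the densest 500 bp of these 9 tiles, chosen from H3K27me3 reads alone, the sums were 5 H3K4me3 and 9 H3K9me3 reads, against 12 WCE reads. There the H3K4me3 ratio was 0.402 (0.111 to 1.23) and the H3K9me3 ratio 1.06 (0.395 to 2.75).

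**Figure D3:**
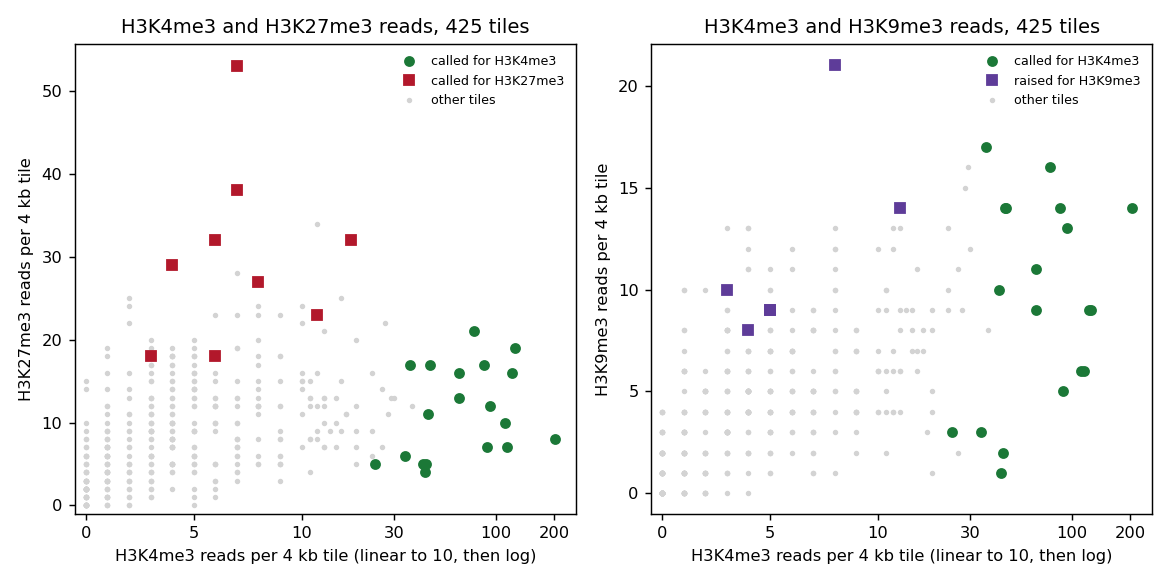
H3K27me3 reads (left, y axis) and H3K9me3 reads (right, y axis) against H3K4me3 reads (x axis, linear to 10 and log above) in each tile of the domain, with tiles that share both values drawn over each other. Green circles are the 19 tiles called for H3K4me3, and squares are the 9 tiles called for H3K27me3 (left) and the 6 raised for H3K9me3 (right), and no tile is in 2 classes.

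H3K27me3 was higher far from H3K4me3 tiles than beside them. In the 31 tiles adjoining called H3K4me3 tiles the H3K27me3 ratio was 0.932 (0.778 to 1.12), in the 102 tiles 2 to 5 away 1.21 (1.09 to 1.33), in the 98 tiles 6 to 15 away 1.53 (1.39 to 1.68), and in the 175 tiles farther away 1.72 (1.58 to 1.87). The last group exceeded the adjoining tiles 1.84 times (1.52 to 2.24, Fisher's exact p = 8.8e-10). Without the sparse stretch, the far tiles numbered 125 and their ratio was 1.82 (1.66 to 1.99). H3K9me3 had ratios between 0.918 and 1.14 in these groups. Its far tiles stood at 0.807 times the adjoining ones (0.654 to 0.997, Fisher's exact p = 0.051). WCE moved along the same groups, with 5.11 reads per tile in the far tiles, against 8.32 in adjoining ones, while H3K27me3 had 8.66 and 7.65 reads per tile, and the part of WCE in the trend was not tested. The called H3K27me3 tiles lay between 12 and 128 kb from the nearest called H3K4me3 tile, from start to start, with a median of 32 kb. In 2 places a called tile of each mark lay 12 kb apart, start to start: the H3K4me3 tile from 142896001 with the H3K27me3 tile from 142908001, and the H3K4me3 tile from 143548001 with the H3K27me3 tile from 143560001.

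**Figure D4:**
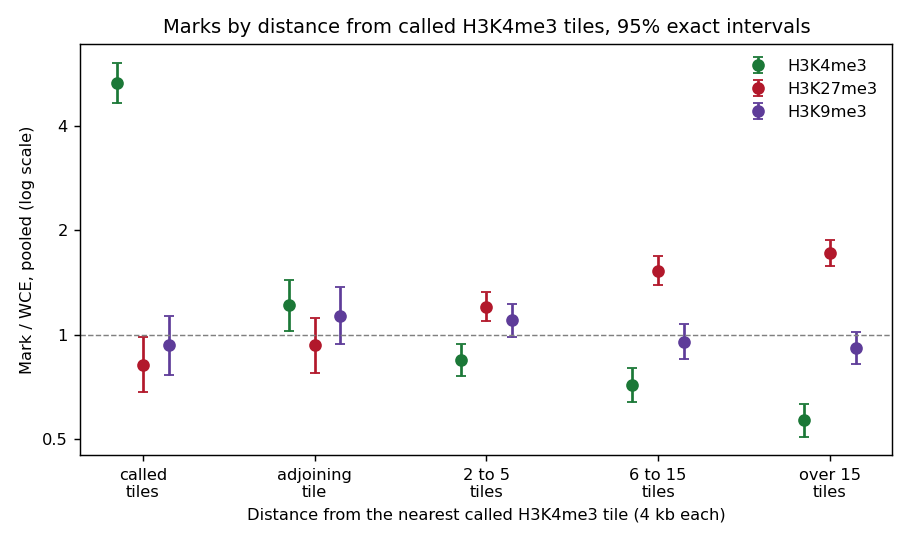
Pooled ratio of each mark to WCE (y axis, log scale) in tiles grouped by distance from the nearest called H3K4me3 tile (x axis, in tiles of 4 kb), with 95% exact intervals as bars and a dashed line at 1. H3K27me3 climbs to 1.72 in tiles over 15 away, against 0.932 in adjoining tiles, and H3K9me3 stays between 0.918 and 1.14.

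Several tiles came close to holding H3K4me3 with a second mark, and in 1 case the tile grid cut through 2 kb in which both were high. The adjoining tiles from 143308001 and 143312001 were raised for H3K27me3, with 32 and 25 H3K27me3 reads, against 7 and 9 WCE reads, and held 18 and 16 H3K4me3 reads (ratios 2.48, 0.989 to 7.03, and 1.72, 0.714 to 4.403). By 1 kb, both marks were highest in the same 2 kb, from 143311001 to 143313000, across the border of the tiles. These 2 kb held 25 H3K4me3, 33 H3K27me3 and 1 H3K9me3 reads, against 8 WCE reads. The ratios were 3.01 (1.32 to 7.73) for H3K4me3 and 4.19 (1.90 to 10.5) for H3K27me3. The 1 kb from 143311001 also held 6 WCE reads, the most of any 1 kb in its 20 kb bin. Its first 500 bp, the densest for H3K27me3 in that tile, held 10 H3K27me3, 0 H3K4me3 and 5 WCE reads. At 500 bp the 2 marks were thus not highest in the same place in that tile. The part of WCE was not tested. With tiles that start 2 kb later, the tile from 143310001 to 143314000 was raised for both marks, with 29 H3K4me3 and 41 H3K27me3, against 11 WCE reads. The 2 kb were chosen after their values were seen, so they carry no test. The place lies just below the edge at which H3K27me3 dropped.

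**Figure D5:**
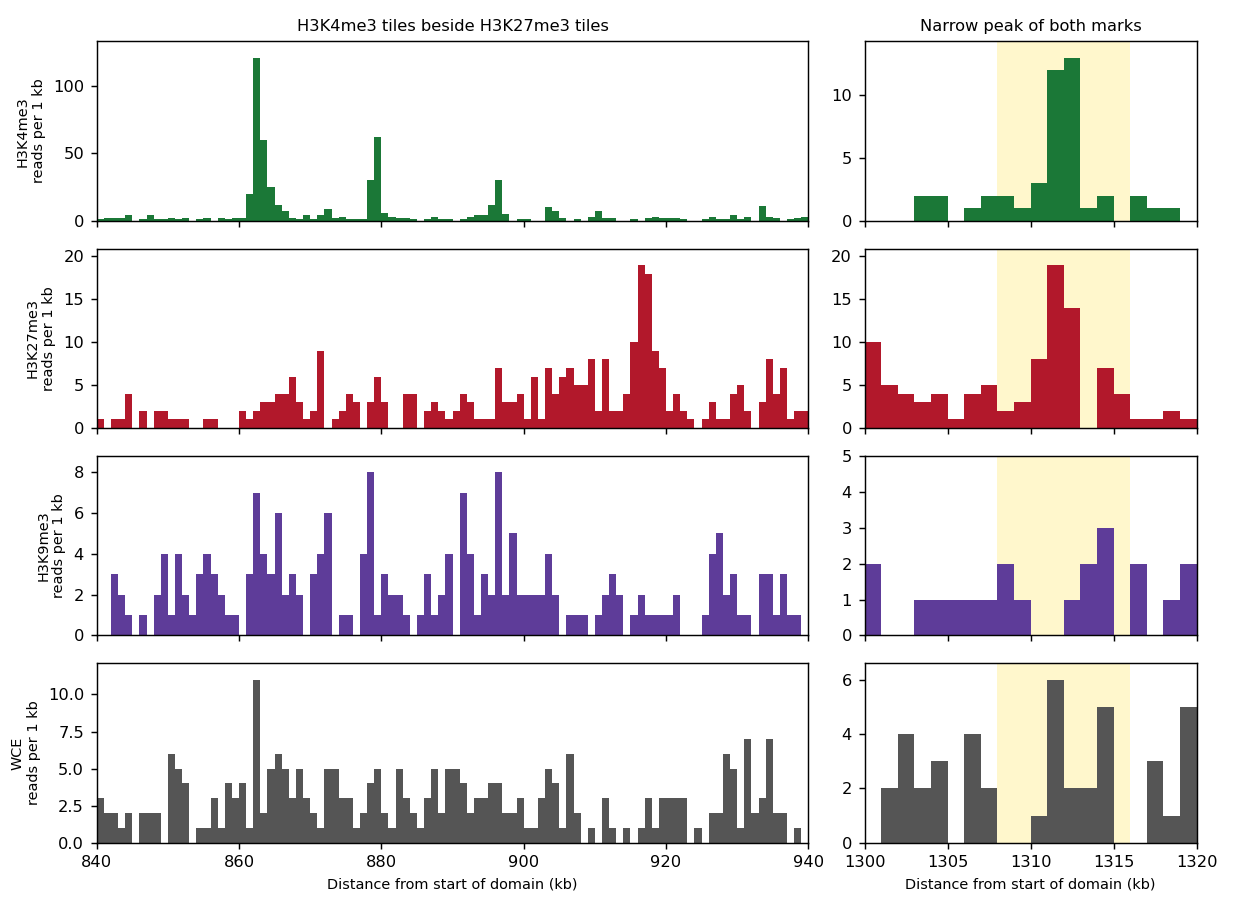
Reads per 1 kb (y axis) against distance from the start of the domain in kb (x axis) for H3K4me3, H3K27me3, H3K9me3 and WCE from top to bottom. On the left, the H3K4me3 peaks and the H3K27me3 stretch lie apart. On the right, both marks peak in the same 2 kb, on either side of the middle of the 8 kb shaded, which is the border of 2 tiles. WCE on the right is also highest there.

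For H3K4me3 with H3K9me3, the called H3K4me3 tiles from 142896001 and 143104001 came nearest, the first in the 4 kb tiles and the second within a narrower window. The tile from 142896001 held 36 H3K4me3, 17 H3K27me3 and 17 H3K9me3 reads, against 11 WCE reads, and its H3K9me3 ratio of 2.19 (0.968 to 5.17) was the highest among called H3K4me3 tiles. By the median scaling it was raised for both marks. The H3K9me3 ratio of the tile from 143104001 was 1.56 (0.601 to 4.09). It held 65 H3K4me3, 13 H3K27me3 and 11 H3K9me3 reads, against 10 WCE reads. All 11 H3K9me3 reads and 60 of the H3K4me3 reads lay in its first 2 kb, from 143104001 to 143106000, against 5 WCE reads. In these 2 kb the H3K4me3 ratio was 11.6 (4.69 to 36.9) and the H3K9me3 ratio 3.12 (0.999 to 11.4), an extent chosen after the values were seen. With tiles that start 2 kb later, the tile from 143102001 to 143106000 was raised for both, with 63 H3K4me3 and 13 H3K9me3, against 6 WCE reads. The tile from 143104001 is the only called H3K4me3 tile between 142900001 and 143320000. The 40 kb described above, with H3K9me3 and H3K27me3 both above a low WCE, end 4 kb before it.

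Further tiles held H3K4me3 beside H3K27me3. The called H3K27me3 tile from 142908001 held 12 H3K4me3 and 23 H3K27me3 reads, against 4 WCE reads (H3K4me3 ratio 2.89, 0.877 to 12.3). The tile from 143564001, raised for H3K4me3 with 27 reads, held 22 H3K27me3 reads, against 11 WCE reads (H3K27me3 ratio 2.03, 0.943 to 4.64), and adjoins the called H3K27me3 tile from 143560001. The tile from 142388001, raised for H3K4me3 with 37 against 17 WCE reads (ratio 2.10), had 12 H3K27me3 and 8 H3K9me3 reads, and both ratios were under 1. The H3K27me3-raised tile from 142380001, with 1 tile between, held 21 H3K27me3 and 13 H3K4me3 reads, against 7 WCE reads.

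Reads that the authors' alignment listed at 2 positions were not used above and gave calls only in tiles already called. From them, H3K4me3 was called in 2 of the 108 domain tiles tested, against 0.515% of all tiles with such reads. These were the tiles from 143456001 and 143492001, and many of the reads are listed in both, as described below. H3K27me3 was called in none (against 0.0222% of all) and H3K9me3 in none (against 0.00514%). Both tiles were already called from reads with 1 position.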

How the data were processed

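The authors deposited signed read positions, which are listed as other values and are neither counts nor a signal. Per the file headers, these came from Bowtie alignments to build mm8 with -e 70 -k 2 -m 2 -n 2 -l 36. The submitters' processing notes name Bowtie too, without a version. Per the labels' protocols, sonicated fragments averaged 500 bp, LM-PCR ran for 18 cycles, and products between 150 and 350 bp were gel-purified. Reads matching over 2 places were dropped at alignment, which leaves long repeats unmeasured.

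The origin of the positions is not given in the sources used here; they were taken as counted from 0, and 1 was added. Reads with 1 position were counted once per chromosome, position and strand, moved 60 bp along their strand, and counted in tiles. Tests ran over chromosomes 1 to 19, X and Y, with Benjamini-Hochberg adjustment over tiles holding a read of either library. Where WCE had 0 reads, a floor of 3 reads was used. Named tiles are tiles with 2 marks, called H3K27me3 and H3K9me3 tiles, the 10 called H3K4me3 tiles of at least 20 reads ranking first by log2 ratio (1 read added), stretches of 2 or more called tiles, and WCE extremes. Others were named after their values were seen. Members, lists and rules were chosen with earlier results of these data known. The work used Python 3.11.15, numpy 2.4.6, scipy 1.17.1, pandas 2.3.3 and matplotlib 3.10.9.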

Additional observations from a re-analysis of the deposited data

Results flagged for a closer look

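Reads with 2 reported positions, which enter none of the counts above, showed an H3K4me3 signal above WCE in 2 tiles of the domain. In the tile from 143456001 there were 52 such H3K4me3 reads, against 15 WCE reads (ratio 3.95, 2.19 to 7.55), and in the tile from 143492001 there were 50, against 13 (ratio 4.38, 2.34 to 8.79). Over the genome 0.515% of tiles with such reads were called for H3K4me3 in this way. Both tiles were also called from reads with 1 position, with 43 and 24 H3K4me3 reads, against 5 and 4 WCE reads. In the H3K4me3 library, 41 pairs of these reads lay 36256 bp apart on the same strand, so many of them are the same reads listed in both tiles, and the H3K4me3 signal cannot be divided between the tiles. H3K27me3 had 7 and 4 such reads there and H3K9me3 10 and 8, and neither was called.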

How the results depend on the processing

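Each library stands for 1 group, so none could be left out. No paired analysis was possible because each group holds 1 library. Of 118 values recomputed under 12 planned settings and 2 added after the data were seen, with 1 count added later to the median scaling, 92 kept their direction and side of the threshold or stayed within 1.5 times of a count. With 2 kb tiles, H3K27me3 was called in 1 tile, and 1 tile was raised for both H3K4me3 and H3K27me3. With tiles starting 2 kb later, 1 tile was raised for H3K4me3 with H3K27me3 and 1 for H3K4me3 with H3K9me3. Without the shift, 1 tile (from 143564001) was raised for H3K4me3 with H3K27me3. An adjusted p under 0.01 left 5 called H3K27me3 tiles, and the larger of the tile's and the local mean WCE left 3. Scaling by the median over 100 kb bins shifted all log2 ratios by 0.81 for H3K4me3, 0.31 for H3K27me3 and 0.08 for H3K9me3. With it H3K4me3 was called in 29 tiles and 24 bins of 20 kb, and H3K27me3 in 19 tiles and 38 bins, and 8 bins were called for both. It gave 1 tile called for H3K4me3 with H3K27me3 (from 143308001), 7 raised for that pair and 3 raised for H3K4me3 with H3K9me3. Over the domain it gave ratios of 2.05 for H3K4me3 and 1.72 for H3K27me3, which turns their order, and 1.05475 for H3K9me3 (exact p = 0.065). Against a uniform background in place of WCE, H3K4me3 was called in 44 tiles, H3K27me3 in 119 and H3K9me3 in 33. There, 18 tiles were called and 37 raised for H3K4me3 with H3K27me3, against 1.71% of all tiles called, and 14 were called and 32 raised for H3K4me3 with H3K9me3, against 1.58%. WCE itself was called in 11 of the 18 and 8 of the 14. Of the alternatives added later, 1 kb tiles gave 2 tiles raised for H3K4me3 with H3K27me3, and counting an adjoining tile gave 1 for that pair and 1 for H3K4me3 with H3K9me3. A median of 6 WCE reads per tile limits what can be called in a single tile.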
